A study of Homo sapiens with 6 samples.

Results

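The RNAs described here are 7SK, 7SL, the Y RNAs, RMRP and RPPH1, short noncoding RNAs that RNA polymerase III transcribes, together with the pseudogene copies of 7SK, 7SL and the Y RNAs. Members were all RefSeq gene spans on GRCh38 whose symbol begins with RN7SK, RN7SL or RNY and a digit, plus RMRP and RPPH1. This gave 1062 loci of 59679 gene spans: 10 true genes and 1052 copies, of which 293 were 7SK copies, 684 were 7SL copies and 75 were Y RNA copies. A peak was given to a locus when its summit lay in the span, which took 49, 61 and 44 peaks of replicates 1, 2 and 3, from lists of 30111, 160931 and 65097 peaks.

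The lists came from RNA immunoprecipitation followed by sequencing (RIP-seq), which reads the RNAs recovered with a protein. The series' design text names SmD2 as that protein, the product of SNRPD2 and a subunit of the Sm ring that surrounds most spliceosomal small nuclear RNAs. HEK293T, an established line derived from human embryonic kidney, was used throughout, and the 6 samples were 3 of genotype SNRPD2OE, in which SNRPD2 was overexpressed, and 3 of genotype Ctrl. The Ctrl samples were not analysed here, so no value below has a control beside it. The labels give neither the means of overexpression nor whether the replicates were separate cultures, so the spread between replicates may be technical.

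7SK RNA holds the kinase P-TEFb inactive in a particle with LARP7, MEPCE and HEXIM proteins, and its release lets RNA polymerase II elongate. 7SL RNA is the scaffold of the signal recognition particle, which brings ribosomes making secreted proteins to the endoplasmic reticulum. Y RNAs bind the Ro60 and La proteins, RMRP is the RNA of RNase MRP, and RPPH1 is the RNA of RNase P, which trims the leaders of transfer RNA precursors. None of these RNAs is known for carrying an Sm ring, and the genome holds many copies of 7SK, 7SL and Y sequences made by retrotransposition.

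For each summit the number of reads and the background, meaning the reads that the peak caller had set for that place, were recovered from the deposited fold and p-value. The fold itself is the scaled reads plus 1 over the scaled background plus 1. After scaling, 1 read counted as 0.5995, 1 and 0.2537 in replicates 1, 2 and 3. Folds, p-values and q-values for like reads therefore differ between lists and are not on 1 scale. The 3 lists differed: median peak width was 77, 40 and 12210 bp, and 75.7% of the peaks of replicate 3 were wider than 1000 bp. Single-read peaks made up none of list 1, 71.4% of list 2 and 55% of list 3. No peak in the lists held more than 78, 80 and 78 reads, and SNRPD2 itself reached 78, 80 and 78 reads with folds of 2.17, 2.79 and 3.46. Near-identical copies can share reads, and the treatment of reads with several matches is not given in the sources used here, so the reads at any 1 copy are uncertain.

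Of the 10 true genes, only the Y RNA genes RNY3 and RNY5 held a summit in these lists. The counts were 0, 1 and 2 of 10 in replicates 1, 2 and 3, and among the 9528 other gene spans of 50 to 500 bp the share with a summit was 2.26%, 5.53% and 5.75%. A count of 0 of 10 allows a share of up to 30.0% by a limit of 3 counts, and the exact 95% binomial interval reaches 30.85%. RN7SK, RN7SL1, RN7SL2, RN7SL3, RNY1, RNY4, RMRP and RPPH1 had no summit and no overlapping peak in any list.

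RNY3 lies on chromosome 7 at 148983755 to 148983856 and encodes a 102 nt RNA. It had no summit in replicate 1. In replicate 2 it had 20 reads over a background of 0.758 reads, a fold of 11.9 and a −log10 q of 15.33, in a peak 41 bp wide. In replicate 3 it had 19 reads over 0.584, a fold of 5.07 and a −log10 q of 1.38, in a peak 58 bp wide. Because 1 read was scaled to 1 in replicate 2 and to 0.2537 in replicate 3, these folds and q-values cannot be compared. Both RNY3 peaks passed a q of 0.05 and their summits were at bases 41 and 64 of the span, counted from its low-coordinate end. RNY5, at 148941488 to 148941571 on the same chromosome, had a summit in replicate 3 only, with 17 reads over a background of 3.94, a fold of 2.66 and a −log10 q of 0.00.

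The 4 Y RNA genes lie in 1 cluster, and with margins of 5 kb the region spans 55.8 kb. It held 2, 7 and 6 peaks in replicates 1, 2 and 3, of which 0, 5 and 2 rested on a single read. The tallest peak was RNY3 in replicates 2 and 3, whereas in replicate 1 the taller of the 2 had 6 reads and lay outside the Y RNA genes. RNY4 and RNY1, between and beside the genes with peaks, had their nearest summits at 1.25 kb or more and 3.32 kb or more.

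**Figure D1:**
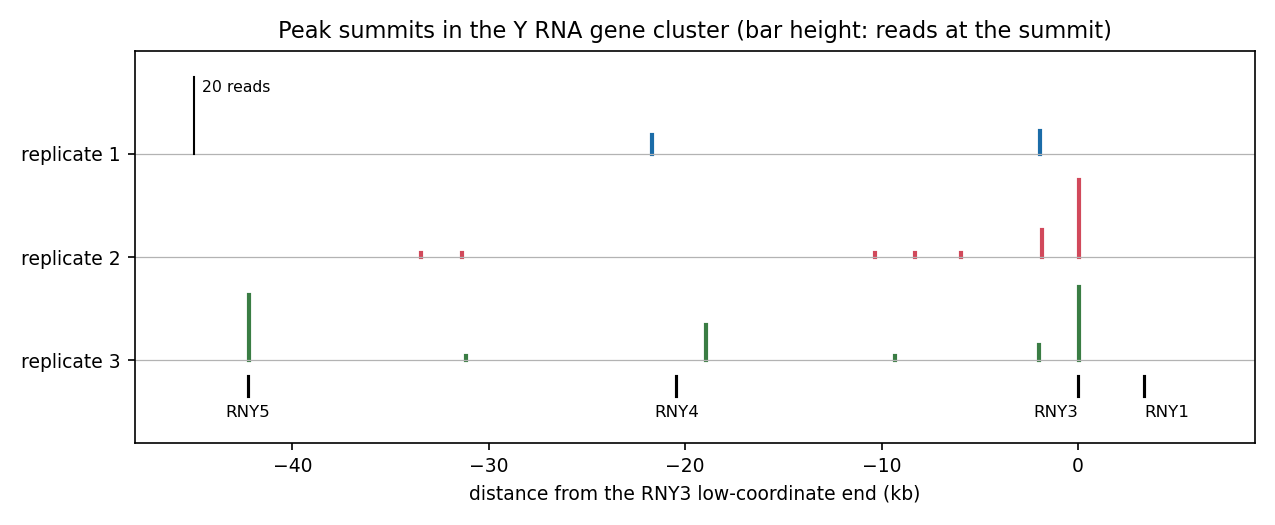
Reads at each peak summit (bar height, scale bar 20 reads) in the Y RNA gene cluster, by distance in kb from the low-coordinate end of RNY3, 1 row per replicate; black ticks mark the genes. RNY3 has 20 and 19 reads in replicates 2 and 3 and no summit in replicate 1, and RNY5 has 17 reads in replicate 3.

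The distance from each gene of the other particles to its nearest summit varied widely between lists. The nearest summit to RN7SK, the gene of 7SK RNA, was 13.0, 1.39 and 10.1 kb away in replicates 1, 2 and 3. RN7SL1, which lies inside the span of the ribosomal protein gene RPS29, had its nearest summit 12.2, 0.256 and 32.0 kb away, and the one at 0.256 kb held 63 reads over a background of 46.0 reads. Around RN7SL2 the distances were 31.2, 5.26 and 6.61 kb, and around RN7SL3 they were 40.2, 14.2 and 15.5 kb. For RMRP they were 31.8, 7.35 and 17.0 kb, and for RPPH1 11.5, 5.55 and 8.91 kb. The lists do not show how much of these RNAs was recovered, and why no peak was listed at these genes was not tested.

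Copies of 7SK and 7SL held nearly all of the member summits, and they were also nearly all of the members (293 and 684 of 1062 loci). A summit lay in 16, 20 and 16 of 293 7SK copies, which is 5.46%, 6.83% and 5.46% (mean 5.92% ± 0.788, SD, n = 3 lists). The exact 95% binomial intervals, which cover counting error only, were 3.15% to 8.72%, 4.22% to 10.3% and 3.15% to 8.72%. A summit lay in 33, 37 and 24 of 684 7SL copies, which is 4.82%, 5.41% and 3.51% (mean 4.58% ± 0.973, SD, n = 3 lists), with intervals of 3.34% to 6.71%, 3.84% to 7.38% and 2.26% to 5.18%. Near-identical copies are not independent, so setting these intervals beside other short spans is no test. Those spans were also shorter, with a median of 107 bp against 280 and 293 bp for 7SK and 7SL copies. In replicate 1 both shares, with their whole intervals, lay above the 2.26% of other short spans. In replicate 2 the intervals held the 5.53% of other short spans, and in replicate 3 the 7SL interval lay below 5.75% while the 7SK interval held it.

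Y RNA copies held fewer summits: 0, 3 and 2 of 75 (0%, 4% and 2.67%, mean 2.22% ± 2.04, SD, n = 3 lists). The count of 0 in replicate 1 allows a share of up to 4% by a limit of 3 counts, and the exact 95% binomial interval reaches 4.80%. By parent gene, a summit lay in 0, 3 and 1 of 33 RNY4 copies and in 0, 0 and 1 of 16 RNY3 copies, and in none of 16 RNY1 or 10 RNY5 copies. Their numbers are too small to order the 4 kinds of Y RNA.

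**Figure D2:**
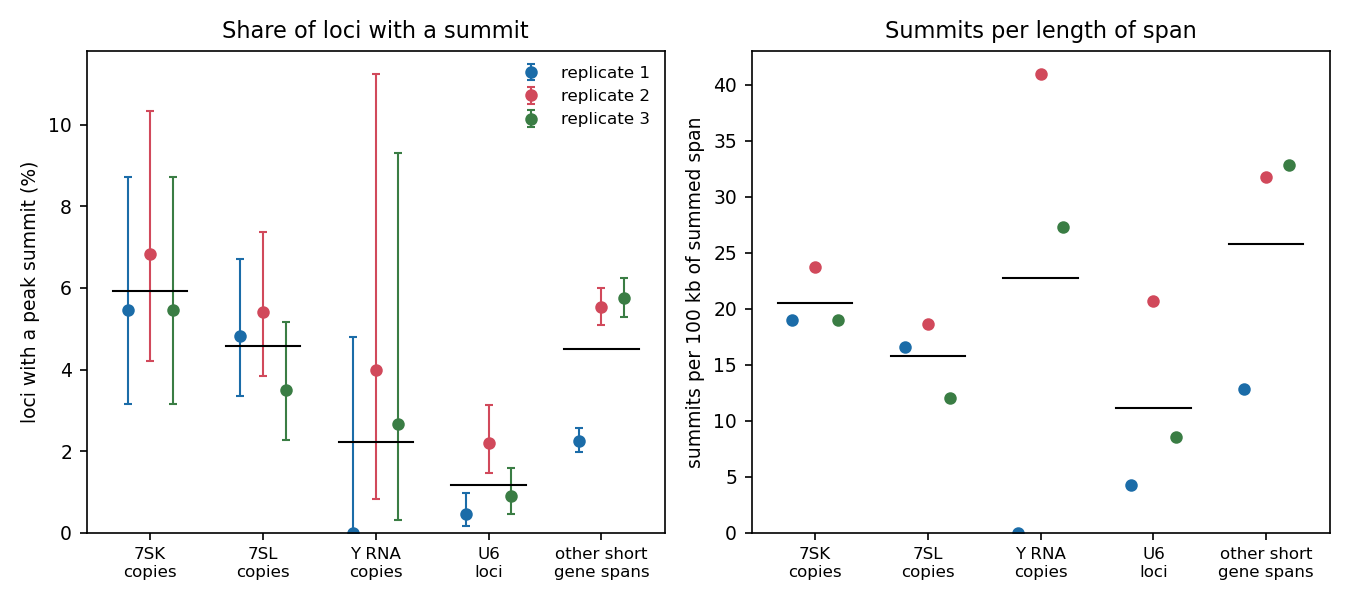
Left, the percent of loci with a peak summit for copies of each family, U6 loci (U6 and U6atac) and other gene spans of 50 to 500 bp, with exact 95% binomial intervals; right, summits per 100 kb of summed span. Points are replicates and black lines their means; 7SK copies average 5.92% and 20.6 summits per 100 kb, and U6 loci 1.18% and 11.2.

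The families were compared with each other and with U6, another polymerase III RNA with many copies, over all loci of each family, true genes included. The 1325 loci called U6 here are U6 and U6atac loci. The mean share over 3 lists was 5.90% for 7SK, 4.56% for 7SL, 3.38% for Y RNA and 1.18% for U6. 7SK exceeded 7SL by 1.33 points ± 0.659 (SD) and was higher in 3 of 3 lists, and the exact sign-flip permutation test, two-sided, gave p = 0.25 (Benjamini-Hochberg 0.375 over 6 comparisons). Without loci that lie in another gene the difference was 0.0732 points ± 1.04 (exact permutation p = 1.0). A p of 0.25 is the smallest this design allows, so none of these differences could pass 0.05. 7SK exceeded U6 by 4.71 points ± 0.242 and 7SL exceeded U6 by 3.38 points ± 0.895, each in 3 of 3 lists (exact permutation p = 0.25, adjusted 0.375). With a q below 0.05 these differences were 0.366 and 0.187 points, with at least 10 reads 0.819 and 0.187, and with any overlap in place of the summit -0.271 and -5.86. 7SK exceeded Y RNA by 2.52 points ± 2.62 in 3 of 3 lists (exact permutation p = 0.25, adjusted 0.375), and by 1.06 points without replicate 1, where no Y RNA locus had a summit.

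The comparisons that involve Y RNA alone with 7SL or U6 changed sign among the lists. 7SL was higher than Y RNA in 2 of 3 lists, by 1.19 points ± 3.27 on average (exact permutation p = 0.75, adjusted 0.75). Y RNA was higher than U6 in 2 of 3 lists, by 2.19 points ± 2.38 (exact permutation p = 0.5, adjusted 0.6).

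Span length differs between these sets, since the median is 280 bp for 7SK copies, 293 bp for 7SL copies, 94 bp for Y RNA copies and 106 bp for U6. Per 100 kb of span, 7SK copies held 19.0, 23.7 and 19.0 summits and 7SL copies 16.6, 18.6 and 12.1. Y RNA copies held 0, 41.0 and 27.3 per 100 kb, and U6 loci 4.28, 20.7 and 8.56. On this scale 7SL copies lay below U6 loci in replicate 2, and the 7SK copies stayed above U6 loci in every list. Y RNA copies lay above both 7SK and 7SL copies in replicates 2 and 3 and below both in replicate 1. The other short spans held 12.8, 31.8 and 32.9 per 100 kb, so both families were above them in replicate 1 and below them in replicates 2 and 3.

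The member peaks with the most recovered reads were at 7SK copies. RN7SKP203, on chromosome 2 outside other genes, had no summit in replicate 1, 79 reads over a background of 56.9 in replicate 2 and 78 reads over 35.5 in replicate 3. RN7SKP71, in the span of HECTD4 on chromosome 12, had no summit in replicate 1, 80 reads over 58.7 in replicate 2 and 77 reads over 43.4 in replicate 3. RN7SKP255 on chromosome 14 had 78 reads over 58.7 in replicate 2 only. These reads sit at or near the highest number in the lists, which SNRPD2 also reached, so they give no order among these copies. Whether further reads at such places were left out was not tested, and the folds there may be too low or too high. The deposited folds were 1.32 to 2.08 and no deposited q was below 0.05, and the background was 35.5 to 58.7 reads.

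RN7SKP230 was the reverse case. This copy lies on chromosome 5 at 109699602 to 109699834, in the span of MAN2A1, a Golgi mannosidase gene, and had no summit in replicates 1 and 2. In replicate 3 it had 51 reads over a background of 1.38 reads, a fold of 10.3 and a −log10 q of 9.74, in a peak 39 bp wide, the strongest of the 12 peaks in MAN2A1 in that list. RN7SKP9, in the span of UBAC2 on chromosome 13, had 25 reads over 11.7 in replicate 1, 24 over 11.7 in replicate 2 and no summit in replicate 3. Its summits in replicates 1 and 2 were at bases 209 and 207 of the span. In replicate 1 RN7SKP180 followed with 19 reads over 8.34 and RN7SKP90 with 7 reads over 1.67.

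The other 7SK copies that passed a q of 0.05 rested on few reads. RN7SKP55, RN7SKP130 and RN7SKP187 each had 6 reads in replicate 1, over backgrounds of 0.0651, 0.0373 and 0.0716, with folds of 4.42, 4.50 and 4.41. RN7SKP69 had 3 reads over 0.0722 in replicate 2, a fold of 3.73. None of the 4 had a summit in another list.

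Among 7SL copies, RN7SL192P was the copy that passed a q of 0.05 in more than 1 list. It lies on chromosome 19 at 11011708 to 11012006, in the span of SMARCA4, a chromatin remodelling ATPase. It had 11 reads over 0.254 in replicate 1 (fold 6.59, −log10 q 3.80), 6 reads over 0.235 in replicate 2 (fold 5.67, −log10 q 3.19) and no summit in replicate 3. The summits were at bases 181 and 188, and each was the strongest of the 11 and 21 peaks in SMARCA4 in its list. Since the lists carry no strand, a peak in a copy cannot be told apart from one in the gene around it.

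6 other 7SL copies passed a q of 0.05, all in replicate 1 and none with a summit in another list. RN7SL836P had 12 reads over 0.195 and a fold of 7.34, and RN7SL735P, in the protein kinase gene PRKCA, had 9 reads over 0.0373 and a fold of 6.26. RN7SL760P in UBE2W had 8 reads over 0.0651, and RN7SL278P had 6 over 0.0373. RN7SL396P had 47 reads and a fold of 2.92, and RN7SL752P, in PLXND1, had 32 reads over 6.67 and a fold of 4.04. That pair thus had the most reads among the 6 and the lowest folds.

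The most reads at 7SL copies otherwise were 36 over 18.4 at RN7SL151P in replicate 1, which missed the q threshold. In replicate 2 no 7SL copy but RN7SL192P had over 2 reads, and RN7SL648P, RN7SL734P, RN7SL749P and RN7SL827P had 2 each. In replicate 3 RN7SL381P, in GSE1, had 19 reads over 3.94, RN7SL724P, in NMNAT3, had 9 over 0.154 (and 10 over 1.67 in replicate 1, with summits at bases 216 and 212 of replicates 3 and 1) and RN7SL731P, in KIF1B, had 7 over 0.369.

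The Y RNA copies were lower than RNY3 itself. RNY3P6, in TM9SF2 on chromosome 13, had 10 reads over 0.307 in replicate 3 and no summit in the other lists. RNY4P1 and RNY4P27 had 1 read each in replicate 2, and RNY4P22 had 1 read in replicates 2 and 3. No Y RNA copy passed a q of 0.05.

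Few loci recurred. Of the 136 member loci with a summit in any list, 120 had one in 1 list only and 16 in at least 2. A further 926 members had none. Of the 958 other short spans with a summit in any list, 276 had one in at least 2. A summit in at least 2 lists was found at 15 copies (1.43% of 1052), where 2.9% of other short spans had one. RN7SKP241 and RN7SL150P had a summit in all 3 lists (0.190% of copies, against 0.588% of other short spans). Lists 1 and 2 shared 5 loci (10.2% of the loci of list 1 and 8.20% of list 2). Lists 1 and 3 shared 9 (18.4% and 20.5%) and lists 2 and 3 shared 6 (9.84% and 13.6%). Sharing between pairs of lists was not measured for other short spans, so it cannot be called particular to these members.

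RN7SKP241, in PRTFDC1 on chromosome 10, had 3 reads in each of the 3 lists, over 0.195, 0.108 and 0.0316, and RN7SL150P on chromosome 19 had 3, 1 and 3 reads over 0.0373, 0.0334 and 0.0316. No peak of either passed a q of 0.05. The replicate 3 peaks of RN7SKP241 and RN7SL150P were 56283 and 43474 bp wide, and the replicate 1 peak of RN7SKP241 reached outside the copy. The summits of RN7SL150P were at bases 127, 128 and 127, and those of RN7SKP241 at 13, 104 and 4. The remaining loci in 2 lists, not yet named, were RN7SKP8, RN7SKP23, RN7SKP228, RN7SL178P, RN7SL334P, RN7SL397P and RN7SL484P, with 1 to 8 reads. All of them but RN7SKP228 had a replicate 3 peak wider than 1000 bp. RN7SKP23 has an annotated span of 4301 bp, far longer than 7SK RNA. Over the 15 copies the summits of different lists were a median of 6 nt apart (0 to 116 nt), within 5 nt at 7 copies and within 10 nt at 10. Of those 7, RN7SKP8, RN7SL150P, RN7SL178P, RN7SL484P and RNY4P22 each included a replicate 3 peak wider than 1000 bp, with 1 to 5 reads. The spacing was not measured for other short spans, so it cannot be called particular to these copies.

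**Figure D3:**
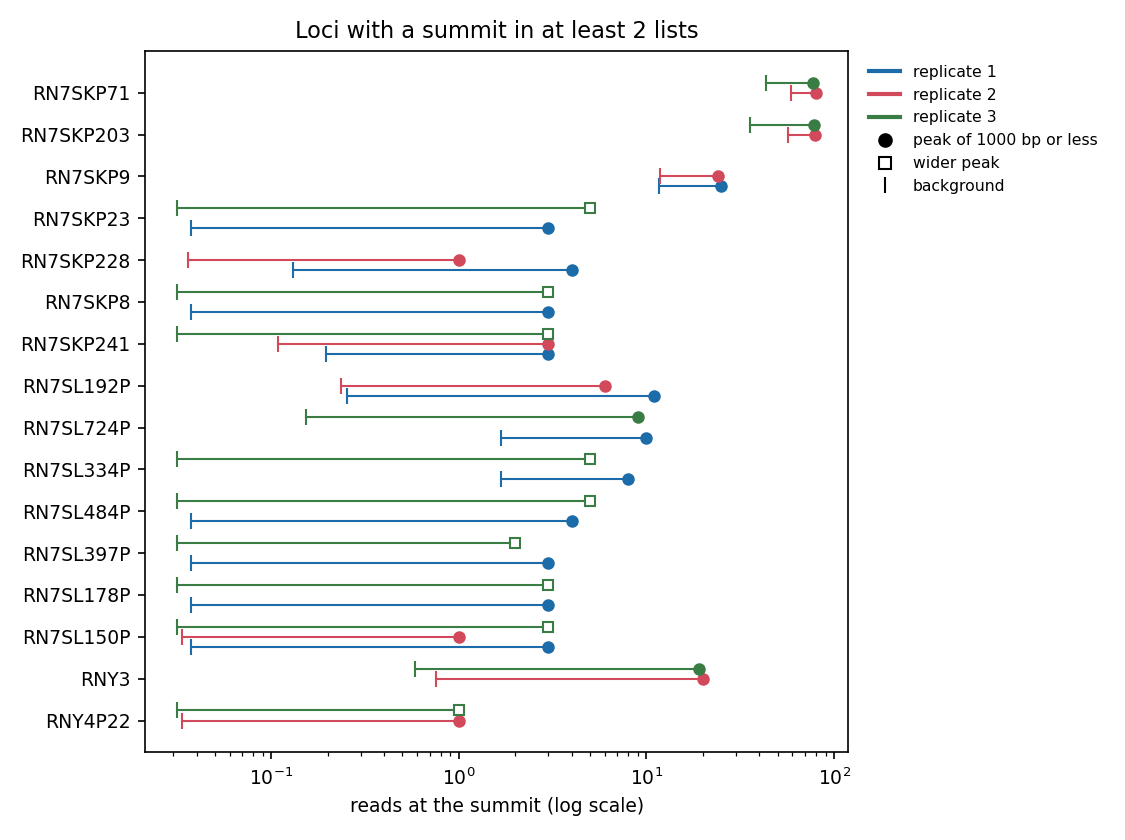
Reads at the summit (filled circles for peaks of 1000 bp or less, open squares for wider peaks) and background (vertical ticks) on a log axis, for the 16 member loci with a summit in at least 2 lists, coloured by replicate. RN7SKP203 and RN7SKP71 have 77 to 80 reads over backgrounds of 35.5 to 58.7, and RNY3 has 20 and 19 reads over less than 1.

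The peaks at copies were set beside all peaks of their list. In replicate 1, 10 of 49 copy peaks (20.4%) had a deposited q below 0.05, where 4.81% of all peaks did. In replicates 2 and 3 the numbers were 2 of 60 (3.33%, against 3.62%) and 1 of 42 (2.38%, against 1.86%). At least 10 reads lay under 9 of 49 copy peaks in replicate 1 (18.4%, against 21.6%), 4 of 60 in replicate 2 (6.67%, against 5.22%) and 5 of 42 in replicate 3 (11.9%, against 8.37%). The share below q 0.05 was thus above that of all peaks in replicates 1 and 3, in the latter on 1 peak, and the difference between lists was not tested.

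Single-read peaks made up 47 of 60 copy peaks in replicate 2 (78.3%, against 71.4%) and 13 of 42 in replicate 3 (31.0%, against 55%). In replicate 3, 35 of 42 copy peaks (83.3%) were wider than 1000 bp, as were 75.7% of all peaks, so most of those peaks extended far beyond the copy that held the summit. No copy peak of replicates 1 and 2 was that wide, as in 0.00664% and 0% of all their peaks. Without the wide peaks, 8 copies in place of 15 had a summit in at least 2 lists and none had one in all 3.

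**Figure D4:**
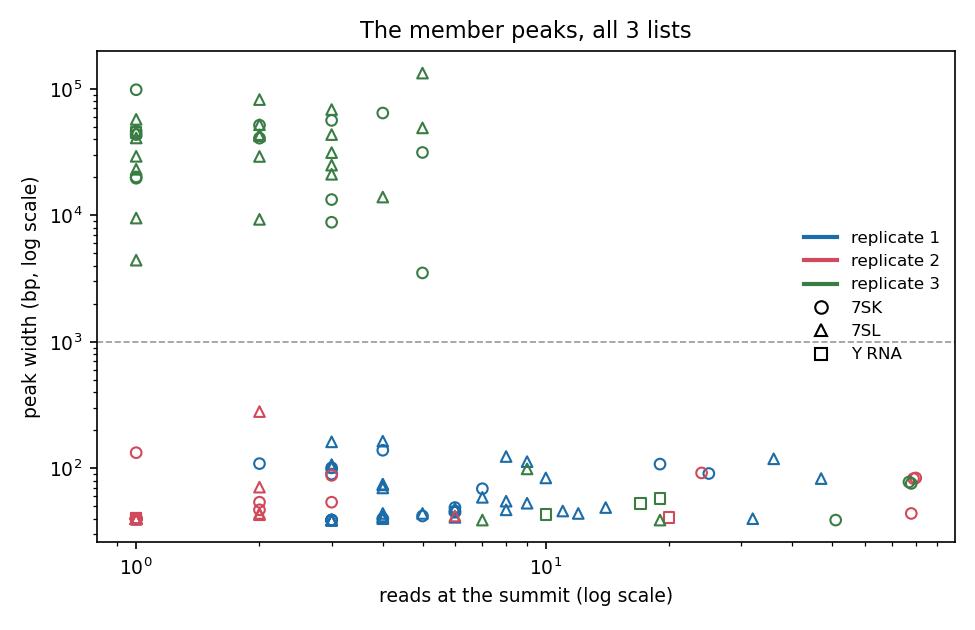
Peak width in bp against reads at the summit, both on log axes, for the 154 member peaks, coloured by replicate and shaped by family; the dashed line is at 1000 bp. Peaks above the line come from replicate 3 alone, and the peaks with most reads are all narrow.

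Summits lay in the central part of the copy more often at 7SL than at 7SK in each list, though no test could pass with 3 lists. The ends of 7SL RNA fold into its Alu domain and the middle forms the S domain, which carries the protein that binds the signal sequence. The copies were not aligned to 7SL RNA, so parts of a span cannot be read as these domains. Between 33.3% and 66.7% of the span lay 15 of 33, 20 of 37 and 11 of 24 summits of 7SL copies (45.5%, 54.1% and 45.8%, mean 48.4% ± 4.86, SD, n = 3 lists). For 7SK copies it was 5 of 16, 6 of 20 and 4 of 16 (31.3%, 30.0% and 25.0%, mean 28.8% ± 3.31). The difference was 19.7 points ± 5.02, higher for 7SL in 3 of 3 lists, and the exact sign-flip permutation test, two-sided, gave p = 0.25, the smallest possible. This measure was chosen after its values were seen. Among 7SL copies of at least 280 bp the central share was 42.9%, 48.3% and 47.1%.

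**Figure D5:**
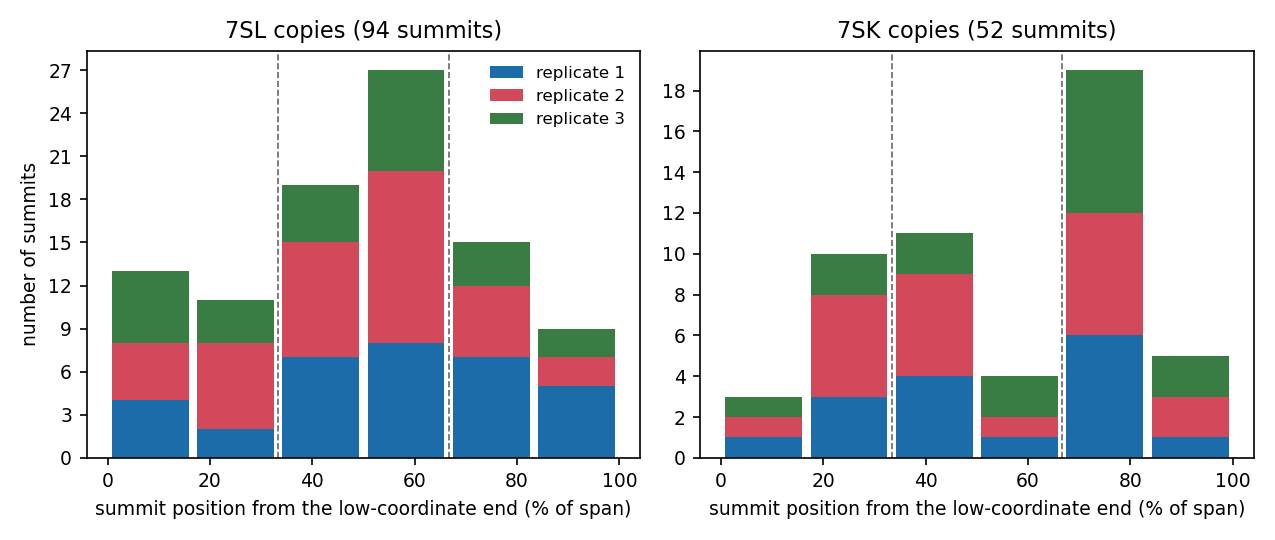
Number of summits in 6 equal bins along the span, from the low-coordinate end (strand was not used), for 7SL copies (94 summits) and 7SK copies (52 summits), stacked by replicate; dashed lines mark 33.3% and 66.7%. The 2 central bins hold 46 of the 7SL summits and 15 of the 7SK summits.

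Many copies lie in the span of another gene, and the share was given for copies with and without a summit, with no test. For 7SL copies it was 62.8% of those with a summit and 62.4% of those without. For 7SK copies it was 63.6% of 44 with a summit and 55.8% of 249 without, and for Y RNA copies 2 of 4 and 51 of 71.

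The protein partners of these RNAs were taken as 4 lists of 32 genes, whose own transcripts could hold peaks. The 32 include ZBP1, which held a summit in replicates 2 and 3 and, as said below, should not be read as a partner. A summit lay in 21, 27 and 22 of the 32 spans (65.6%, 84.4% and 68.8%), where 45.3%, 76.7% and 65.5% of all protein-coding spans had one. In all 3 lists it was 15 of 32 (46.9%, against 38.5%). Long spans catch more summits, and the median span was 9.87, 34.9, 14.9 and 6.90 kb in the 4 lists below, in order, against 24.1 kb for all protein-coding genes.

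Of the 7 genes of the 7SK particle and P-TEFb, 4, 6 and 4 held a summit. LARP7, which binds the end of 7SK RNA, held 1, 6 and 2 summits, and MEPCE, which caps it, held 0, 5 and 3. HEXIM1, the inhibitor of P-TEFb, held none. Of the 8 genes of the signal recognition particle and its receptor, 5, 7 and 6 held one, among them SRP54, the signal-binding GTPase, with 2, 7 and 2, and SRP68 with 4, 12 and 1. SRP9, a partner of the Alu domain, held none.

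All 6 genes listed as Y RNA partners held a summit in replicates 2 and 3, and 3 of 6 did in replicate 1. These counts include ZBP1, with 0, 1 and 1 summits. By its symbol ZBP1 is the gene of Z-DNA binding protein 1, so it should not be read as a Y RNA partner. RO60, which encodes the Ro60 protein, held 1, 7 and 1, and SSB, which encodes La, held 0, 2 and 1. Of the 11 genes of RNase P and RNase MRP proteins, 9, 8 and 6 held a summit, with 3, 11 and 7 in RPP30 and 3, 7 and 5 in POP1.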

How the data were processed

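RIP-seq peak lists of the 3 SNRPD2OE samples were analysed, grouped by genotype in the labels; 3 Ctrl samples were not analysed here. The submitters' processing notes name cutadapt 4.2, STAR 2.7.10b, MACS2 2.2.9.1 and build GRCh38. The sources used here do not give the caller's options, background library, duplicate treatment or strand, and the labels' protocol describes total RNA, not the immunoprecipitation.

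Per the deposited columns, each peak has a score, a fold, a −log10 p-value and a −log10 q-value, all the authors' own. Peak numbering began after 828, 5158 and 1883 peaks, which were not analysed here. Library depth is unknown. Reads and background were recovered from fold and p (tolerance 0.002 on −log10 p). Several solutions existed for 2.62%, 1.09% and 8.62% of distinct pairs, and the closest was taken. As a check of the code, 3000 recovered read numbers per list were passed through the same formulas and back, and 100% returned. This does not show that the caller used those formulas, nor that the closest solution was the right one. Reads are not independent molecules.

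Spans came from RefSeq GRCh38.p14 without strand or exons. Of the members, 0 matched the sequence tables, so the planned likeness to the true genes was not made, and positions run from the low-coordinate end. Members and lists were chosen with earlier results of these data known. Named loci were all true genes, loci in at least 2 lists, the 3 with most reads per family and list, those with q below 0.05, and SNRPD2. Partner genes named with values were picked after their values were seen.

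Shares were compared over lists by exact sign-flip permutation. Alternatives were a q below 0.05, at least 2 or 10 reads, peaks of at most 1000 bp, lists of equal length, any overlap, 50 bp margins, no loci in other genes, and leaving out each replicate. Python 3.11.15, pandas 2.3.3, numpy 2.4.6, scipy 1.17.1 and matplotlib 3.10.9 were used.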

Additional observations from a re-analysis of the deposited data

How the results depend on the processing

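No paired analysis was possible because the Ctrl samples, which share replicate numbers with the SNRPD2OE samples, were not analysed here. Library depth is unknown, and many peaks rest on few reads. Of the alternative values, 11 reversed and 37 others, shares or counts, moved beyond the replicate spread or by over 1.5 times. The other 106 did not, but for differences between families this means only the same direction, and several shrank. The measures of position and of partner genes, with their alternatives, were added after seeing the data; the cause of each shift was not tested.

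With a q below 0.05 the mean shares fell to 0.567% for 7SK and 0.388% for 7SL, 1 true gene kept a summit, 1 copy recurred in 2 lists and 0 in all 3. 7SK minus Y RNA became -0.277 points and 7SL minus Y RNA -0.456, while 7SK and 7SL minus U6 shrank to 0.366 and 0.187 and 7SK minus 7SL to 0.179. The central share of 7SK summits became 11.1% ± 19.2 (SD), on 3, 1 and 1 peaks in replicates 1, 2 and 3. It has no 7SL value beside it, because replicate 3 had 0 peaks at 7SL copies with such a q. Of partner genes 10.4% had a summit, and the share of all protein-coding spans was not measured under the alternatives. With at least 2 reads the shares were 3.97% and 2.67%, and 1 copy was in all 3 lists. With at least 10 reads they were 1.02% and 0.388%, with 3 copies in 2 lists and 0 in all 3, differences from Y RNA of -0.667 and -1.30 points, differences of 7SK and 7SL from U6 of 0.819 and 0.187, 7SK minus 7SL of 0.632, and 34.4% of partner genes. With peaks of at most 1000 bp they were 4.42% and 3.54%, with 8 copies in 2 lists and 0 in all 3. With lists of equal length the 7SK share was 3.4% and the 7SL share 2.67%, with 1 copy in all 3 lists.

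With any overlap the shares were 20.6% for 7SK, 15.04% for 7SL and 17.7% for Y RNA, with 39 copies in 2 lists. 7SL minus Y RNA became -2.68 points, and the differences of 7SK, 7SL and Y RNA from U6 became -0.271, -5.86 and -3.18. Without loci in another gene the share was 4.72% for 7SK and 7.69% for Y RNA, with 6 copies in 2 lists and 1 in all 3, and 7SK and 7SL minus Y RNA became -2.97 and -3.04 points. 7SK minus 7SL was then 0.0732 and 7SK minus U6 2.95.

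Leaving out each replicate gave 5 to 9 copies shared by both remaining lists. Without replicate 3 1 true gene, RNY3, had a summit, and without the other replicates it was 2. 7SK minus Y RNA ran from 1.06 without replicate 1 to 3.59 without replicate 3, and Y RNA minus U6 from 1.21 without replicate 3 to 3.52 without replicate 1. 7SL minus Y RNA was -0.624 points without replicate 1 and up to 2.56 without replicate 3.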

Other observations

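In the Y RNA gene cluster 1 site had a summit in all 3 lists, where summits no more than 200 nt apart were joined. It lies 1.83 to 1.97 kb from the low-coordinate end of RNY3, with summits between 148981790 and 148981927 on chromosome 7 and in none of the gene spans. Its peaks held 6, 7 and 4 reads over backgrounds of 0.455, 0.650 and 0.461 in replicates 1, 2 and 3, and the peak of replicate 2 had a −log10 q of 1.85. RNY3 itself had no summit in replicate 1. The site was chosen after its values were seen and was not tested.

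Along the span of 7SK copies the bin from 66.7% to 83.3% held 6 of 16, 6 of 20 and 7 of 16 summits in replicates 1, 2 and 3, or 19 of 52 in all. The next fullest of the 6 bins held 11. The orientation of the copies was not used, and the bin was picked after its counts were seen.

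Of the 18 copy peaks with at least 10 reads, which lay at 15 copies, 15 had a background of at least 1 read and 5 had a deposited q below 0.05. Their backgrounds ran from 0.195 to 58.7 reads.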
